A study of Mus musculus with 48 samples.

Results

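The collagen genes of the mouse encode the chains that wind into the triple helices of the extracellular matrix. They were taken here as every gene with an official collagen chain symbol (Col, a type number, the letter a and a chain number) in the deposited tables, which gave 44 of the 34183 gene identifiers. Their levels were measured by RNA-seq in cultures of dorsal root ganglion, where the somata of sensory neurons lie. Per the labels, all cultures came from adult wildtype mice and were enriched for neurons, grown in Neurobasal-A with B27, and taken either untransfected at 0 h or 42 h after isolation and transfection with DharmaFECT 2. There were 12 groups of 4 libraries each, 48 in all.

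The transfected cells received 1 ON-TARGETplus siRNA pool or a custom-made mRNA. The siRNA groups were siCONTROL and knockdowns of 7 nuclear proteins named after their targets: siAtf4, siAtf3, siJun, siStat3, siKlf6, siRest (each against a transcription factor) and siAlyref (against a factor of mRNA export). The mRNA groups received mRNA for green fluorescent protein (GFP), for Atf4, or for Atf4 with its dimer partner Cebpg. Each target had 1 pool, so an effect of losing the target and an effect of its pool cannot be told apart. The labels do not say that replicates were separate animals or cultures, so p-values measure only the spread between these libraries, which may be technical.

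Collagens are secreted or membrane-bound proteins whose chains fold in the endoplasmic reticulum (ER) after proline and lysine hydroxylation. Fibrillar collagens (types I, II, III, V, XI, XXIV and XXVII) form the cross-striated fibrils of connective tissue, type IV forms the network of basement membranes, type VI forms beaded filaments, and FACIT collagens sit on the surface of fibrils. In peripheral nerve and ganglia, Schwann cells, satellite glia, fibroblasts and blood vessels are surrounded by such matrix, and neurites grow on it in the dish.

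Library totals ran from 1539198 counts, in siKlf6 replicate 1, to 6621566 in siCONTROL replicate 2. Levels are given in the usual unit CPM, a gene's count scaled by the total of its library. The deposited counts behave as if scaled by transcript length, so that CPM can be compared between genes as a level per length. Each targeted transcript was lower in its own knockdown, with no overlap with siCONTROL, from Atf4 (563 to 95.7 CPM) to Rest (8.35 to 3.29 CPM). Pan-neuronal markers summed to between 11040 and 17750 CPM in the group means, and markers of Schwann cells, satellite glia, endothelial cells, mural cells and fibroblasts were all present, so the cultures were mixed.

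The collagen genes differed widely in level, and a few of them carried most of the collagen transcript. In siCONTROL at 42 h the 44 genes together reached 589 ± 118 CPM (SD, n = 4). Col4a1, Col18a1, Col5a3, Col4a2 and Col5a2 made up 62.8% of that sum. Of the 44 genes, 14 had a mean of at least 10 CPM, 13 lay between 1 and 10, and 17 lay under 1. At time 0 the sum was 221 ± 12.9 CPM and more evenly spread, with 48.5% of it in Col28a1, Col5a3, Col4a1, Col16a1 and Col1a2.

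Several chains were barely detected. Col9a1 of cartilage was listed at 0 in every library of time 0, siCONTROL and GFP, and its highest library anywhere held 0.578 CPM. The basement membrane chains of restricted tissues Col4a3, Col4a4, Col4a5 and Col4a6, and the cartilage chain Col2a1, failed the low-count filter of every comparison. In all, 14 collagen genes were tested in none of them, and a further 5 (Col10a1, Col11a2, Col20a1, Col22a1 and Col26a1) were not tested between time 0 and siCONTROL. A gene that passed only through the group where it was high had to differ there, so counts over tested genes are given as a description.

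**Figure D1:**
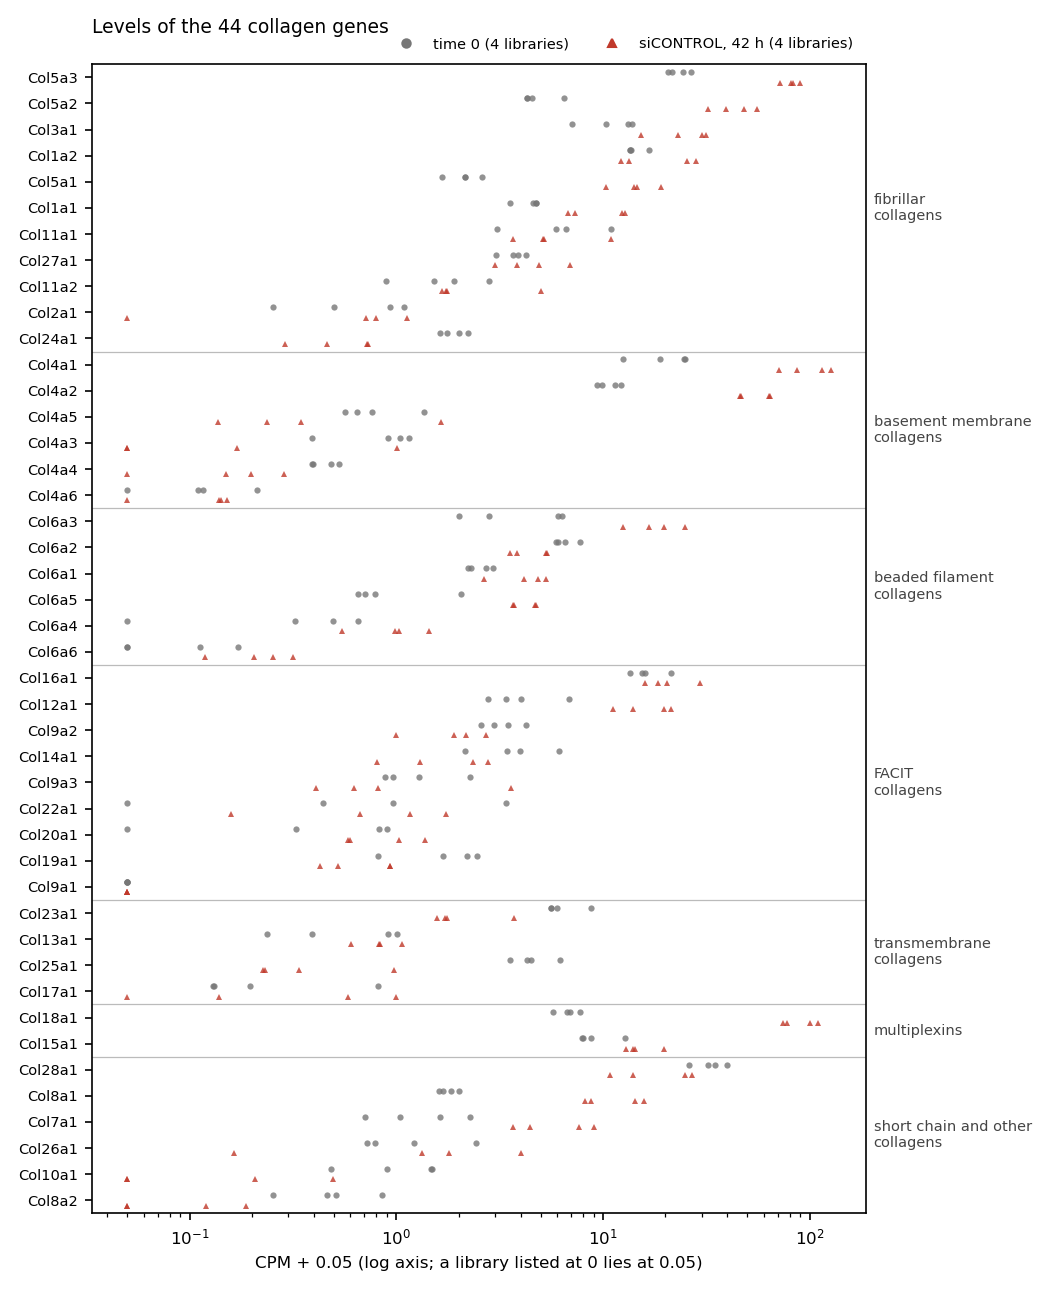
CPM of each of the 44 collagen genes in the 4 time 0 libraries (grey circles) and the 4 siCONTROL libraries at 42 h (red triangles), on a log axis with 0.05 added and with genes grouped by class. Col4a1, Col18a1 and Col5a3 lie at the right at 42 h, and the 17 genes with a mean under 1 CPM lie at the left.

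The first comparison set siCONTROL at 42 h against time 0. These groups differ in both time in culture and transfection, which cannot be told apart. Of the 25 collagen genes tested, 14 were higher and 5 lower in siCONTROL at an adjusted p under 0.05 by edgeR's quasi-likelihood test, beside 28.7% of all genes tested that were higher and 29.2% that were lower (57.9% in either direction). The median log2 fold change was 1.08 over the collagen genes and 0.01 over all 13448 genes tested. In 17 of the 19 genes called, the 4 libraries of one group did not overlap those of the other, a share near the 87.4% of all genes called. In 16 of the 25 tested genes all 4 libraries of both groups lay over the filter's minimum of 2.03 CPM, and 9 of these were higher and 2 lower. The other 9 (Col14a1, Col23a1, Col25a1, Col5a1, Col6a3, Col6a5, Col7a1, Col8a1 and Col9a2) fell short of it in at least 1 library, so their entry to the test depended on the higher group. For these 9 the levels are a description, and the p-values given below are no independent support. Bulk RNA cannot tell apart a change in the number of cells of a type from a change in RNA per cell.

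Among the fibrillar chains, 5 of 8 tested (11 in the class) rose, and all 3 chains of type V were among them. Type V chains start and limit fibrils, and the chain encoded by Col5a3 is known in peripheral nerve. Col5a2 stood at 4.25, 4.22, 4.50 and 6.44 CPM in time 0 replicates 1 to 4 and at 32.1, 39.2, 48.2 and 55.2 CPM in those of siCONTROL. The lowest siCONTROL library was well above the highest time 0 library, and Col5a2 rose 8.35-fold (log2 fold change 3.06 ± 0.21 SE, adjusted p = 3.40e-07). Col5a1 stood at 2.10, 1.62, 2.54 and 2.10 CPM and at 14.5, 10.3, 14.2 and 19.1 CPM, again without overlap (6.53-fold, log2 2.71 ± 0.25, adjusted p = 4.55e-06). Col5a3 was already the second most abundant collagen at time 0, with 26.7, 21.6, 24.4 and 20.5 CPM. It reached 81.2, 72.0, 89.2 and 83.4 CPM and rose 3.26-fold (log2 1.70 ± 0.11, adjusted p = 2.64e-07), a smaller fold than its partner chains from a higher start.

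The chains of types I and III, the main fibril collagens of connective tissue, changed less. Col3a1 went from 13.7, 10.3, 7.05 and 13.1 CPM to 22.9, 15.3, 30.0 and 31.3 CPM, with no overlap but with siCONTROL replicate 2 close to time 0 (2.12-fold, log2 1.08 ± 0.26, adjusted p = 0.00364). Col1a1 rose 2.11-fold, from a mean of 4.35 to 9.76 CPM (adjusted p = 0.00467). Its partner chain Col1a2 stood at 16.7, 13.6, 13.4 and 13.4 CPM at time 0. In siCONTROL it was at 13.3 and 12.1 CPM in replicates 1 and 2 and at 25.3 and 28.1 CPM in replicates 3 and 4. The groups of Col1a2 overlapped, and it did not pass (log2 0.36, adjusted p = 0.250). Col11a1 (log2 -0.17, adjusted p = 0.754) and Col27a1 (log2 0.24, adjusted p = 0.534) did not pass either.

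Both tested basement membrane chains rose. Col4a1 and Col4a2 encode the ubiquitous pair that forms the type IV network, and they lie head to head in the genome. Col4a1 stood at 24.9, 24.6, 18.7 and 12.5 CPM at time 0 and at 70.6, 86.5, 126 and 114 CPM in siCONTROL (4.59-fold, log2 2.20 ± 0.22, adjusted p = 7.82e-06). Col4a2 stood at 9.81, 9.32, 11.3 and 12.2 CPM and then at 46.0, 46.5, 64.3 and 63.2 CPM (4.82-fold, log2 2.27 ± 0.15, adjusted p = 3.56e-07). Their folds were within 1 SE of each other, and in neither did the groups overlap. In the RefSeq annotation of GRCm38.p6 their starts lie 21 bases apart on opposite strands and their first exons share 22 bases, so reads from those bases could be given to either gene.

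The largest rise was in a multiplexin, one of the basement membrane collagens that carry sugar side chains and release anti-angiogenic fragments. Col18a1, the source of endostatin, stood at 6.90, 6.61, 7.73 and 5.71 CPM in the 4 time 0 libraries. It stood at 78.0, 74.4, 109 and 99.9 CPM in the siCONTROL libraries, so every one of them was far above time 0. Col18a1 rose 12.4-fold (log2 3.63 ± 0.16, adjusted p = 1.66e-08). The other multiplexin, Col15a1, found around nerve, muscle and capillaries, stood at 8.68, 12.7, 7.94 and 7.83 CPM and at 13.9, 14.2, 12.8 and 19.6 CPM (1.51-fold, log2 0.59 ± 0.21, adjusted p = 0.0282). The groups of Col15a1 nearly touched at 12.7 and 12.8 CPM. Its call was lost without time 0 replicate 1 (adjusted p = 0.0667), 3 (0.0732) or 4 (0.0736) and without siCONTROL replicate 4 (0.0827).

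Col18a1 has 2 promoters in the RefSeq promoter table for GRCm38.p6, and they are shown because the counts per gene do not say which of them was used. Each line gives the 250 bases before a start, read 5′ to 3′ on the minus strand. Capitals mark the GC box GGGCGG and the CCAAT box, which appear here in reverse complement. The first window, chr10:77166531-77166780, held 3 GC boxes and 1 CCAAT box. The second, chr10:77113706-77113955, held 0 of each.
Col18a1 first window: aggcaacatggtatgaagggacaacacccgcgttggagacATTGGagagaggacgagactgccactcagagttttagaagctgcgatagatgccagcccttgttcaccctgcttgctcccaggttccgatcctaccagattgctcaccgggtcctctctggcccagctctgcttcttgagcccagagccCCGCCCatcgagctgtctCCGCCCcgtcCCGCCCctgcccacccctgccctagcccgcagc
Col18a1 second window: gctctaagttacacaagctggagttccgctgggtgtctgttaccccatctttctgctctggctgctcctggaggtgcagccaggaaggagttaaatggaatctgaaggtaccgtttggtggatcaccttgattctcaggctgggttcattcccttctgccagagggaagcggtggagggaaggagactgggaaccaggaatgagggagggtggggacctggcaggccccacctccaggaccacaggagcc
The sequence of the second window therefore has no capitals. Of all 32851 promoter windows of this length, 32.7% held a GC box and 33.8% a CCAAT box on either strand.

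The beaded filament chains of type VI, which anchor cells to the interstitial matrix, split in direction. Col6a3 rose from 6.28, 6.04, 1.96 and 2.77 CPM to 12.4, 16.6, 24.8 and 19.8 CPM (4.06-fold, log2 2.02 ± 0.34, adjusted p = 0.000408). Col6a5 rose 3.92-fold (adjusted p = 0.00192). Col6a2, whose protein assembles with those of Col6a1 and Col6a3, fell from 6.52 to 4.47 CPM (log2 -0.66, adjusted p = 0.0352). The call of Col6a2 was lost without time 0 replicate 3 (0.0952) or 4 (0.0608) and without siCONTROL replicate 2 (0.0912) or 3 (0.0874). Col6a1 did not pass (log2 0.60, adjusted p = 0.111), although it did without siCONTROL replicate 2 (0.0478).

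FACIT collagens also split. Col12a1, which binds type I fibrils, rose 3.63-fold from 4.21 to 16.5 CPM (adjusted p = 0.000297), while the related Col14a1 fell from 3.87 to 1.76 CPM with overlapping groups (log2 -1.23, adjusted p = 0.0391). The call of Col14a1 was lost in 5 of 8 leave-outs, without time 0 replicate 1 (0.0643), 3 (0.140) or 4 (0.0707) and without siCONTROL replicate 1 (0.0946) or 2 (0.108). Col16a1, the most abundant FACIT gene here, stood at 21.4, 15.5, 13.4 and 15.9 CPM and then at 18.3, 16.0, 20.5 and 29.5 CPM, with overlap (log2 0.24, adjusted p = 0.333). Col9a2, a type IX chain, was at 3.42, 4.18, 2.51 and 2.90 CPM and then at 0.943, 2.13, 2.68 and 1.86 CPM (log2 -0.83, adjusted p = 0.0654).

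In the remaining classes, Col8a1, a short chain collagen of endothelial and corneal matrix, rose 6.06-fold, from 1.96, 1.57, 1.80 and 1.64 CPM to 8.14, 8.65, 15.8 and 14.2 CPM (log2 2.60 ± 0.29, adjusted p = 1.92e-05). Col8a1 reached the filter's minimum in 0 of 4 time 0 libraries and entered the test through siCONTROL alone, so its p is no independent support. Col7a1, which forms the anchoring fibrils of skin, rose 4.24-fold to 6.14 CPM (adjusted p = 0.00183). The most abundant collagen at time 0 was Col28a1, a collagen with von Willebrand factor A domains that is found around Schwann cells. It went from 34.8, 25.9, 39.7 and 32.3 CPM to 13.8, 10.8, 24.8 and 26.9 CPM. Col28a1 fell 1.87-fold (log2 -0.90 ± 0.26, adjusted p = 0.0109), though the highest siCONTROL library was above the lowest time 0 library.

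Both tested transmembrane collagens fell. Col25a1, a membrane collagen known from neurons, stood at 3.49, 6.12, 4.24 and 4.46 CPM at time 0. In siCONTROL it was at 0.176, 0.181, 0.930 and 0.287 CPM, below every time 0 library. It was 10.5-fold lower (log2 -3.39 ± 0.50, adjusted p = 0.000134). Col25a1 entered the test through time 0 alone, where it was high, so the levels describe it and the p is no independent support. Col23a1 fell 3.20-fold, from 6.43 to 2.14 CPM (log2 -1.68, adjusted p = 0.00143). Summed by class, the transmembrane collagens went from 11.9 to 3.71 CPM, the basement membrane chains from 32.9 to 155 CPM, the fibrillar chains from 74.4 to 208 CPM, and FACIT chains from 32.5 to 44.9 CPM.

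**Figure D2:**
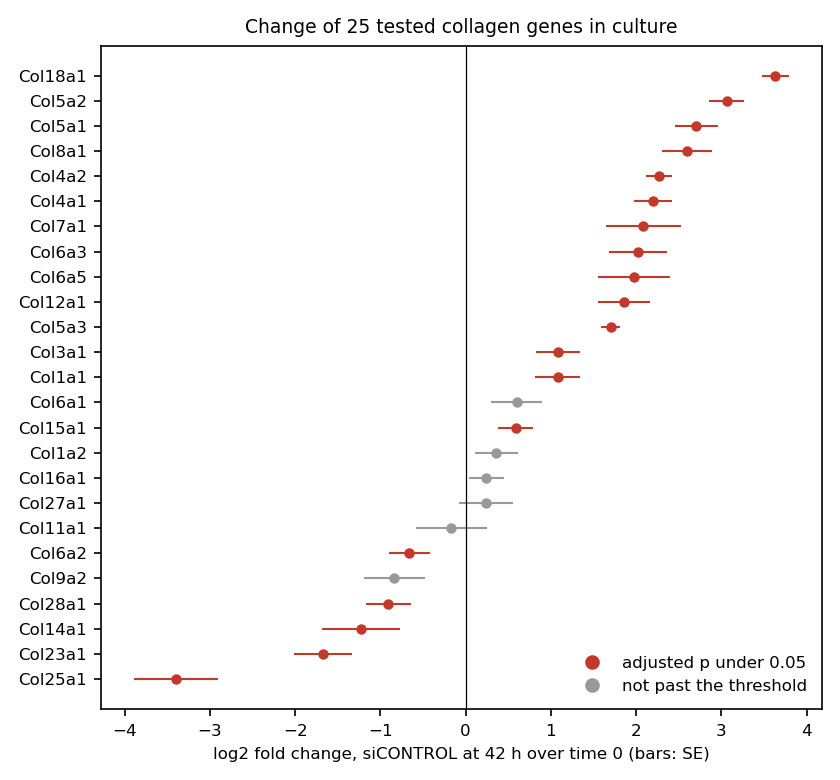
Log2 fold change (x axis, siCONTROL at 42 h over time 0) of the 25 collagen genes tested, with bars for the SE, red for an adjusted p under 0.05 and grey for the rest. Col18a1 lies farthest to the right at 3.63 and Col25a1 farthest to the left at -3.39.

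Within siCONTROL, several of these genes were lower in replicates 1 and 2 than in replicates 3 and 4, and the sum over all 44 genes showed the same split (480 to 494 CPM against 686 to 696 CPM). In 7 of the 8 siRNA groups, each library numbered 3 or higher had a larger sum than both libraries numbered 1 and 2. In siAtf3 the ranges overlapped (542 to 614 and 607 to 698 CPM). At time 0 the order was the other way, with 223 to 239 CPM in replicates 1 and 2 and 208 to 216 CPM in replicates 3 and 4. In the 3 mRNA groups the ranges of the collagen sums overlapped. Summed Schwann cell markers were lower in each library numbered 3 or higher in all 12 groups of both tables, for example 2855 to 2962 against 3188 to 3204 CPM at time 0. In the 8 siRNA groups, summed endothelial markers were higher in 0 and lower in 1, and summed fibroblast markers higher in 2 and lower in 1. The labels do not say what the replicate numbers stand for, and the part of these markers in the collagen sums was not tested.

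Genes that make collagen were measured alongside. Of 22 genes of collagen folding, hydroxylation and export in the ER, 12 rose and 2 fell between time 0 and siCONTROL, with a median log2 fold change of 0.41. With 57.9% of all genes called in either direction, 14 of 22 is near the background, as are the 6 of 9 called among processing genes and among receptors below. By direction, 28.7% of all genes rose and 29.2% fell, so the 12 of 22 that rose are a larger share and the 2 that fell a smaller one. The genes are given for their own values. Serpinh1, the collagen chaperone Hsp47, rose from 23.9 to 146 CPM (log2 2.50, adjusted p = 4.36e-08). The lysyl hydroxylases Plod3 (46.4 to 119 CPM, log2 1.26) and Plod2 (3.35 to 8.51 CPM, log2 1.24) and the chaperone Fkbp10 (log2 1.20) rose as well. Creb3l1, a membrane-bound transcription factor of collagen secretion, fell (log2 -1.15).

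Outside the cell, of 9 genes of procollagen processing and crosslinking tested, 4 rose and 2 fell (median log2 fold change -0.36). Adamts2, the protease that removes the amino-terminal propeptide, fell from 4.15 to 0.743 CPM (log2 -2.63), while the crosslinking enzymes Loxl2 (log2 1.96) and Loxl1 (log2 1.67) and the proteinase enhancer Pcolce2 (28.1 to 84.9 CPM, log2 1.50) rose. Of 9 collagen receptors tested, 4 rose and 2 fell (median 0.55). Ddr2, a receptor kinase for fibrillar collagen, rose from 2.94 to 16.4 CPM (log2 2.35) and the integrin subunit Itgb1 from 187 to 504 CPM (log2 1.33), while Itga11 fell (log2 -2.80). Among 10 proteins that bind fibrils, 4 rose and 4 fell (median 0.33), beside 28.7% of all genes that rose and 29.2% that fell. Ogn (log2 -2.87) and Comp (log2 -2.66) fell, while Thbs2 (log2 1.91) and Postn (19.4 to 70.0 CPM, log2 1.76) rose.

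Markers of the other cells in the cultures moved as well. Endothelial markers rose in 7 of 8 genes tested and fell in 1, Flt1, and their sum went from 144 (127 to 184) to 319 (280 to 344) CPM, with Pecam1 at a log2 fold change of 2.42. Of 5 fibroblast markers 0 rose and 2 fell, Apod (log2 -2.50) and Dcn (log2 -1.07), and their sum went from 318 (214 to 408) to 95.1 (69.9 to 116) CPM. Schwann cell markers rose in 1 and fell in 9 of 12 (sum 3052 to 1875 CPM), satellite glia markers rose in 1 and fell in 6 of 8 (4681 to 721 CPM), and pan-neuronal markers fell in 6 of 10 (17750 to 13920 CPM). Of 5 mural cell markers 1 fell (sum 122 to 95.9 CPM), and of 5 macrophage markers 2 rose and 2 fell (21.5 to 38.6 CPM). The 6 cell cycle genes tested all rose. The part of these cell types in the collagen changes was not tested.

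The second set of comparisons asked how each knockdown differed from siCONTROL. All 7 share the same 4 siCONTROL libraries and are not independent. The collagen genes that passed were 1 of 28 tested with siAtf3 (11.5% of all genes passed and 7.49% were lower), 2 with siAtf4 (6.91% and 4.17%), 1 with siJun (7.78% and 4.59%), 1 with siKlf6 (1.85% and 1.14%) and 1 with siAlyref (4.26% and 3.37%), all of them lower. In this fit the shares of collagen genes, 3.57% for 1 of 28 and 7.14% for 2 of 28, were below or near the background except with siKlf6, where they rest on a single gene. With siStat3 (3.03% of all genes passed) and siRest (0.202%), 0 of 28 passed by edgeR, 1 in each had an unadjusted p under 0.05, and DESeq2 called 0 in each. With siAtf4, 23 of the 28 genes had a negative log2 fold change, and their median was -0.28 beside -0.001 over all genes. In the other knockdowns the collagen medians ran from -0.17 (siAlyref) to 0.09 (siRest).

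**Figure D3:**
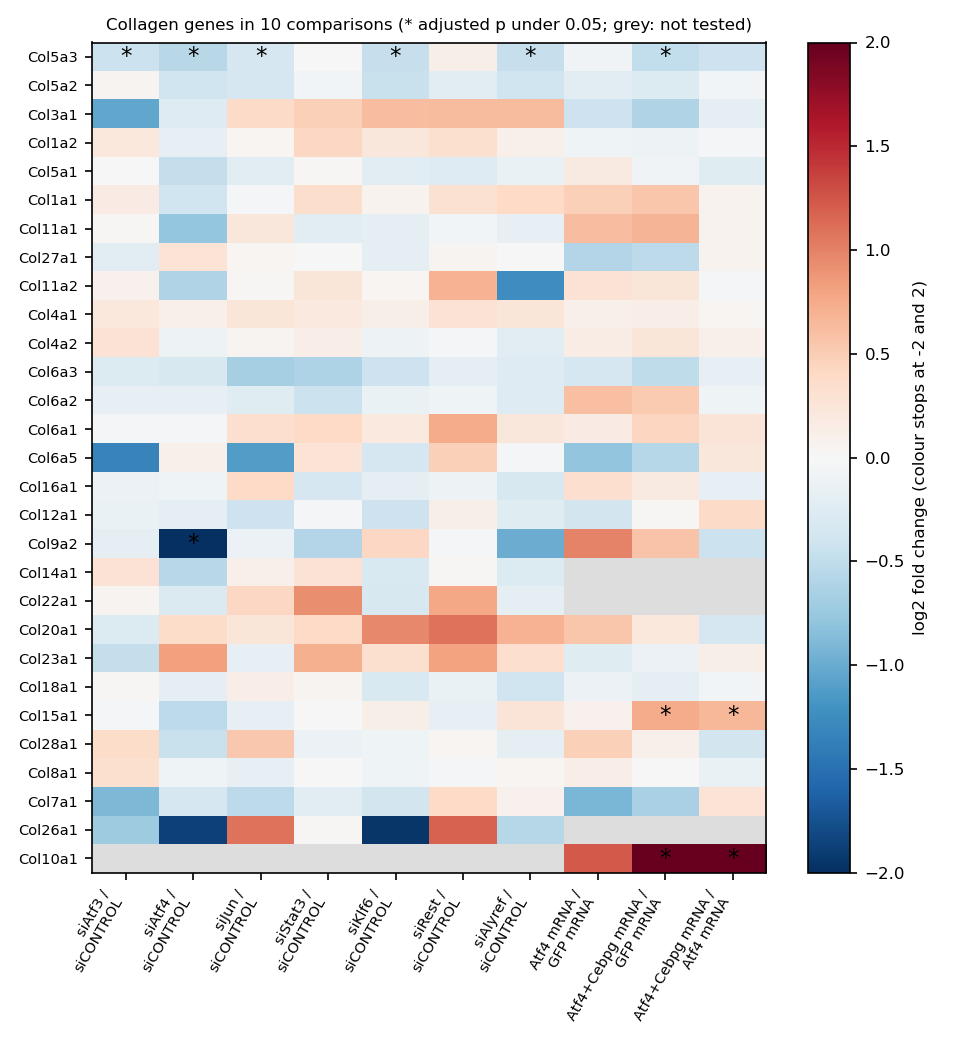
Log2 fold change of each tested collagen gene (y axis) in the 7 knockdowns against siCONTROL and in 3 comparisons of the mRNA groups (x axis), with colour from -2 (blue) to 2 (red), stars for an adjusted p under 0.05 and grey for genes not tested. The stars fall mostly in the top line, which is Col5a3.

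The gene that passed in 5 of the 7 knockdowns was Col5a3, the type V chain. The siCONTROL libraries held 81.2, 72.0, 89.2 and 83.4 CPM. With siAtf4 the libraries held 54.4, 61.5, 53.5 and 54.5 CPM, all below every control library. Col5a3 fell with siAtf4 from 81.4 ± 7.13 to 56.0 ± 3.70 CPM (log2 -0.56 ± 0.11, adjusted p = 0.000855). With siAtf3 the libraries held 56.6, 64.4, 69.9 and 62.9 CPM, again all below the controls (log2 -0.44 ± 0.11, adjusted p = 0.00587). The calls in siAtf4 and siAtf3 held when any 1 library was left out, with adjusted p up to 0.00606 and 0.0310.

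The calls of Col5a3 in the other 3 knockdowns rested on fewer libraries. With siAlyref it stood at 64.4, 62.6, 59.8 and 53.0 CPM, below every control (log2 -0.45 ± 0.11, adjusted p = 0.0107), and the call was lost without siAlyref replicate 4 (0.0653). With siKlf6 it stood at 51.2, 57.7, 60.4 and 67.9 CPM in replicates 1, 2, 4 and 5, also below every control (log2 -0.47 ± 0.11, adjusted p = 0.0179). That call was lost without siCONTROL replicate 3 (0.0794) or siKlf6 replicate 1 (0.0614), 2 (0.0501) or 4 (0.0596), and with only those groups in the fit (0.124).

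With siJun, Col5a3 stood at 59.2, 55.4, 71.8 and 76.3 CPM, and replicate 4 lay above the lowest control library (log2 -0.34 ± 0.11, adjusted p = 0.0449). The siJun call of Col5a3 was lost without siCONTROL replicate 1 (0.0848), 3 (0.131) or 4 (0.0916), without siJun replicate 1 (0.140) or 2 (0.189), with only those groups in the fit (0.106), with no filter (0.0907) and without rounding (0.0537). With siStat3 (75.8, 69.5, 104 and 76.0 CPM) and siRest (87.9, 77.3, 96.3 and 92.3 CPM) the libraries overlapped the controls and the test was not passed. No other collagen gene passed in more than 1 knockdown in this fit, which takes no account of replicate number.

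**Figure D4:**
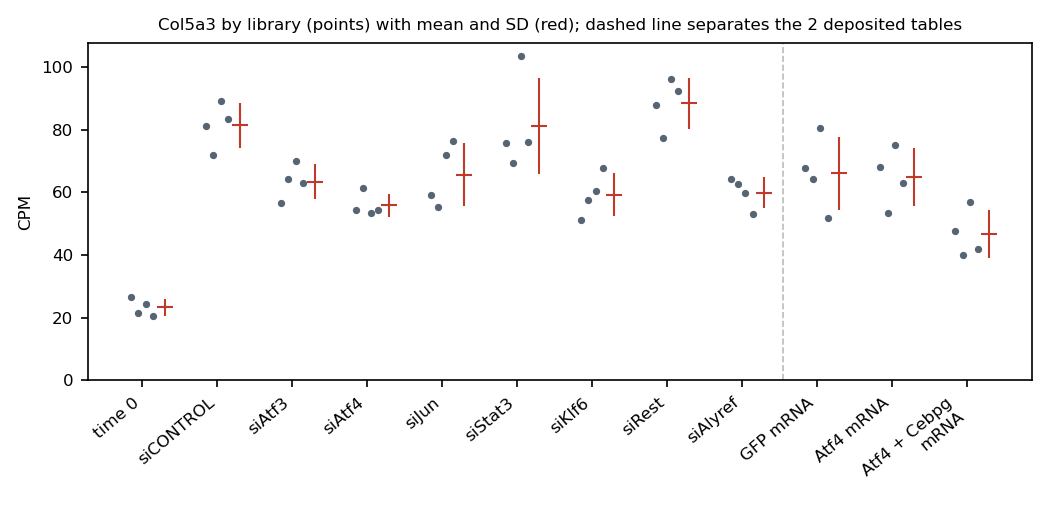
CPM of Col5a3 in each library of the 12 groups (points), with the mean and SD in red, and a dashed line between the 2 deposited tables. Time 0 lies between 20.5 and 26.7 CPM, siCONTROL between 72.0 and 89.2 CPM, and siAtf4 between 53.5 and 61.5 CPM.

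The promoter of Col5a3 is shown as the gene that was called in the most knockdowns. The line gives the 250 bases before its start in the RefSeq table for GRCm38.p6, at chr9:20815068-20815317, read 5′ to 3′ on the minus strand. Capitals mark 1 CCAAT box and 2 GC boxes in reverse complement.
Col5a3: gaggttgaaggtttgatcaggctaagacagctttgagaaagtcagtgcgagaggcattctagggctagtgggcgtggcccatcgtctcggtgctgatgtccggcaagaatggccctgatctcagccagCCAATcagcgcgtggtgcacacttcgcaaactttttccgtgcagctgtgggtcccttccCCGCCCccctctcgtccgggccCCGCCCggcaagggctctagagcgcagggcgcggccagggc
The window held no match on either strand to the AP-1 element TGANTCA, the CRE TGACGTCA, the C/EBP-ATF composite TGATGNAAT or the STAT element TTCNNNGAA. These letters being absent from this window says nothing of whether the factors bind the gene.

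The second gene lower with siAtf4 was Col9a2, a chain of type IX collagen. The siAtf4 libraries held 0.236, 0.642, 0.672 and 0.581 CPM, all below the lowest siCONTROL library at 0.943 CPM (the others at 2.13, 2.68 and 1.86). Col9a2 fell from 1.90 ± 0.726 to 0.533 ± 0.202 CPM (log2 -2.01 ± 0.63, adjusted p = 0.0479). Col9a2 lay over the filter's minimum of 1.98 CPM in 2 of 4 siCONTROL libraries and 0 of 4 siAtf4 libraries. The call was near the threshold: it was lost in 7 of 8 leave-outs (0.0770 to 0.150) and kept without siCONTROL replicate 1 (0.0400), and it was lost with no filter (0.0767) and without rounding (0.0543).

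Other collagen genes had a lower mean with siAtf3 than in siCONTROL without passing. Col3a1 with siAtf3 stood at 5.86, 10.5, 14.1 and 20.2 CPM, beside 22.9, 15.3, 30.0 and 31.3 CPM in siCONTROL (log2 -1.03 ± 0.36, adjusted p = 0.0601). The groups of Col3a1 overlapped, with siAtf3 replicate 4 above siCONTROL replicate 2. Col3a1 passed without siCONTROL replicate 2 (0.0378), without siAtf3 replicate 4 (0.0231) and with DESeq2 (0.0342). Col6a5 with siAtf3 stood at 3.12, 2.10, 0.912 and 0.772 CPM, below every siCONTROL library (3.61, 4.69, 4.62 and 3.66), and did not pass (log2 -1.33, adjusted p = 0.0840).

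A test of differences among the 7 knockdowns, which does not use siCONTROL as the reference, passed 7 of 28 collagen genes, a smaller share than the 36.0% of all genes that passed. They were Col5a3 (adjusted p = 2.25e-05), Col3a1 (0.00239), Col18a1 (0.0172), Col6a5 (0.0232), Col28a1 (0.0309), Col26a1 (0.0439) and Col9a2 (0.0496). Over 28 leave-outs the calls of Col5a3 and Col3a1 were lost in 0, that of Col18a1 in 1 (without siAlyref replicate 1, 0.0518) and that of Col6a5 in 2 (without siAtf3 replicate 3, 0.0548, or 4, 0.0533). The call of Col26a1 was lost in 15 and that of Col9a2 in 21. The call of Col28a1 was lost in 6, without replicates 2 (0.0684) or 3 (0.0606) of siAtf4, 3 (0.0519) or 4 (0.0507) of siAtf3, and 3 (0.100) or 4 (0.0946) of siJun. The count of 7 dropped to 4 without siAtf4 replicate 2 or 3, siAtf3 replicate 3 or siJun replicate 4, and to 3 without siAtf3 replicate 4.

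Pairwise contrasts of siAtf3, siAtf4 and siJun showed where these genes differed. Atf3 and Jun proteins can form AP-1 dimers with each other, but Col3a1 differed between their knockdowns. Col3a1 stood at 31.4, 21.6, 42.8 and 35.4 CPM with siJun, above every siAtf3 library (siAtf3 minus siJun, log2 -1.41 ± 0.35, adjusted p = 0.00774). That difference held in all 8 leave-outs, with adjusted p up to 0.0382. Col28a1 stood at 19.4, 17.9, 36.7 and 38.1 CPM with siJun and at 15.2, 12.1, 12.7 and 16.1 CPM with siAtf4, without overlap (siJun minus siAtf4, log2 0.99 ± 0.26, adjusted p = 0.00616, up to 0.0386 in 8 leave-outs).

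Col28a1 was also higher with siAtf3 (16.7, 23.3, 35.5 and 28.1 CPM) than with siAtf4 (log2 0.83 ± 0.26, adjusted p = 0.0192). This difference in Col28a1 was lost without siAtf4 replicate 2 (0.0625) or 3 (0.0548) or siAtf3 replicate 3 (0.0961). Col6a5 was lower with siAtf3 than with siAtf4 (6.57, 2.46, 2.58 and 6.13 CPM; log2 -1.43, adjusted p = 0.0344), and the call was lost without siAtf4 replicate 1 (0.126) or 4 (0.102) or siAtf3 replicate 3 (0.107) or 4 (0.119). Col9a2 was higher with siAtf3 (log2 1.83, adjusted p = 0.0329) and with siJun (log2 1.89, adjusted p = 0.0336) than with siAtf4, and these differences of Col9a2 were lost in 5 of 8 leave-outs for siAtf3 (without siAtf4 replicate 1, 0.111, 2, 0.0536, or 4, 0.0609, or siAtf3 replicate 3, 0.0954, or 4, 0.0813) and in 6 of 8 for siJun (up to 0.135). For Col26a1, siJun stood at 0.520, 2.31, 0.981 and 11.5 CPM, and the difference from siAtf4 (log2 2.96, adjusted p = 0.0420) rested on replicate 4, without which it was 1.40 (adjusted p = 0.430).

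Genes that process collagen were tested in the same knockdowns, with 7.49% of all genes lower with siAtf3 and 4.59% with siJun as the background. With siAtf3, 3 of 8 processing and crosslinking genes tested fell: Pcolce2 (84.9 to 48.3 CPM, log2 -0.89, adjusted p = 1.96e-05), Loxl4 (log2 -1.21, adjusted p = 0.0301) and Loxl2 (log2 -0.78, adjusted p = 0.0252). With siJun, 3 of 8 fell: Pcolce2 (to 42.8 CPM, log2 -1.03, adjusted p = 4.95e-06), Loxl2 (log2 -0.86, adjusted p = 0.0196) and the procollagen C-proteinase Bmp1 (log2 -0.54, adjusted p = 0.0104). With siStat3, Pcolce2 rose to 127 CPM (log2 0.57, adjusted p = 0.00792) and 0 of 8 fell. The prolyl hydroxylase subunit P4ha3 fell with siAtf3 from 18.3 to 10.4 CPM (log2 -0.89, adjusted p = 5.45e-05), while the cargo receptors of ER export Mia2 (log2 0.49) and Mia3 (log2 0.32) rose. These knockdowns share siCONTROL, so their likeness in Pcolce2 is not independent. Pcolce2, P4ha3, Mia2 and Mia3 kept these calls with siAtf3 in every leave-out. With siAtf3, the call of Loxl2 was lost without siCONTROL replicate 4 (0.145) or siAtf3 replicate 1 (0.106), 3 (0.0637) or 4 (0.0620), and that of Loxl4 without siCONTROL replicate 2 (0.0756) or 4 (0.0559) or siAtf3 replicate 1 (0.105), 2 (0.0515) or 4 (0.0932). With siJun, the call of Loxl2 was lost without siCONTROL replicate 4 (0.124) or siJun replicate 2 (0.0694) or 3 (0.0515), and that of Bmp1 without siJun replicate 2 (0.0543).

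The collagen receptor Ddr2 fell with siAtf4 from 16.4 to 6.73 CPM (log2 -1.30 ± 0.24, adjusted p = 0.000487), and Colgalt2, which adds galactose to collagen, rose from 20.3 to 31.5 CPM (log2 0.61, adjusted p = 0.00174). Of 9 fibril-binding genes tested, 0 passed in any of the 7 knockdowns by edgeR. Endothelial markers passed in 0 of 8 genes in each knockdown by edgeR, and fibroblast markers in 0 of 5 except with siAlyref, where Apod fell (log2 -0.89, adjusted p = 0.0482, lost in 6 of 8 leave-outs with p from 0.0756 to 0.279). With siAtf3 and siJun, 1 of 6 mural cell markers fell in each (Rgs5), and the marker sums were 69.4 and 72.8 CPM beside 95.9 in siCONTROL. In each of them 1 of 11 Schwann cell markers (Pmp22) and 1 of 8 satellite glia markers (Glul) fell, and the satellite glia sums were 545 and 558 CPM beside 721. Rgs5 also fell with siStat3 (lost in 6 of 8 leave-outs), the Schwann cell marker Sox10 with siAlyref (lost in 5 of 8) and the macrophage marker Csf1r with siAtf3 (lost in 1 of 8). The satellite glia marker Cadm2 rose with siAtf4 (lost in 7 of 8). Of 10 pan-neuronal markers, 7 fell with siAtf3 (sum 12060 beside 13920 CPM), 2 fell and 1 rose with siJun (12230 CPM), and 3 rose with siAtf4 (15020 CPM). With siStat3 2 fell (13000 CPM), and with siAlyref 1 fell (12790 CPM). Of the pan-neuronal calls, that of Nefl with siAtf3 was lost without siCONTROL replicate 2 (0.0788) or siAtf3 replicate 3 (0.0843), that of Tubb3 with siAlyref without siCONTROL replicate 2 (0.0583) or siAlyref replicate 3 (0.0706), and that of Syt1 with siAtf4 in 6 of 8 leave-outs (up to 0.0891). With siStat3, the call of Elavl4 was lost in 4 of 8 leave-outs (up to 0.209) and that of Rbfox3 in 0. The part of these cell types in the lower Pcolce2 and Col5a3 was not tested.

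The third set of comparisons asked what added Atf4, alone or with Cebpg, did against GFP mRNA. The added transcripts were plainly present, with Atf4 at 635 CPM in GFP, 14390 with Atf4 mRNA and 20100 with both, and Cebpg at 46.1 CPM in GFP and 59200 with both. With Atf4 mRNA alone, 0 of 26 collagen genes passed by edgeR (4.84% of all genes passed), 1 had an unadjusted p under 0.05, and DESeq2 called 0. With both mRNAs, 2 rose and 1 fell of 26 against GFP (12.4% of all genes rose and 12.2% fell, 24.6% in either direction, beside 11.5% of the collagen genes). Against Atf4 alone, 2 rose (6.60% of all genes passed and 4.50% rose, beside 7.69% of the collagen genes). Both comparisons share the libraries that received both mRNAs. The summed collagen level was 412 ± 51.8 CPM with GFP, 426 ± 33.6 with Atf4 and 405 ± 57.2 with both, means closer to each other than the SD.

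The one large change was in Col10a1, the short chain collagen that marks hypertrophic cartilage. The GFP libraries held 0.138, 0.108, 0.137 and 0 CPM, and the Atf4 libraries 0.180, 0.513, 0.444 and 0.174 CPM. With Atf4 and Cebpg together the libraries held 6.15, 6.02, 4.35 and 3.24 CPM, all far above both other groups. The fitted differences of Col10a1 were log2 4.82 ± 0.53 against GFP (adjusted p = 2.65e-05) and log2 3.59 ± 0.47 against Atf4 alone (adjusted p = 0.000481). Col10a1 reached the filter's minimum of 2.25 CPM in all 4 libraries with both mRNAs and in 0 of 4 in either other group. It was therefore tested only because it was high there, and these p-values are no independent support for the difference in level. Rounded, the deposited values summed to 78 counts with both mRNAs, 7 with Atf4 and 3 with GFP. The ratio of the rounded counts, allowing for library totals, was 32.5 against GFP (95% interval 10.7 to 161) and 12.0 against Atf4 alone (5.57 to 30.9). The intervals cover counting error only and take each count as 1 read. Before rounding the sums were 77.5, 5.99 and 1.98, which gives ratios of 49.0 and 14.0, so rounding alone moved the ratio against GFP by over 1.5 times.

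Col10a1 was low elsewhere too, with means of 1.04 CPM (0.433 to 1.44) at time 0 and 0.151 CPM in siCONTROL, and 0 in all 4 siKlf6 libraries. The mean of 4.94 CPM with both mRNAs was the highest of the 12 groups, across tables that were deposited separately. It lies within Nt5dc1, a gene of the opposite strand, and whether counting used the strand is not given in the sources used here. Nt5dc1 stood at means of 5.43, 6.75 and 6.19 CPM with GFP, with Atf4 and with both, and its libraries overlapped between all 3 groups.

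The promoter of Col10a1 is shown because it is the collagen gene with the largest change in the mRNA groups. The line gives the 250 bases before its start in the RefSeq table for GRCm38.p6, at chr10:34389731-34389980 on the plus strand, read 5′ to 3′. Capitals mark TATAAA, 32 bases before the start, and ATGCAAT, 54 bases before it.
Col10a1: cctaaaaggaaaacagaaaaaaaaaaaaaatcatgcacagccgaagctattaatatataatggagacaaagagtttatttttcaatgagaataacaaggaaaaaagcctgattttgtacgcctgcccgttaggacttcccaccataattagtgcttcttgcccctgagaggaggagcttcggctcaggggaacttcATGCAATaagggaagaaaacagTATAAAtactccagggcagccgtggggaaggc
ATGCAAT is the end of one form of the C/EBP-ATF composite element TGATGNAAT, and the full element did not match here. The shorter form was chosen after the window had been read. It occurred in 1.76% of all 32851 windows on either strand, and TATAAA in 12.4%. A match is a description of the sequence and no evidence of binding.

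Over all collagen genes, 35 of 44 had an entry in the promoter table, with 38 windows. GC boxes were found in 22 of the 38 windows and CCAAT boxes in 13. The AP-1 element TGANTCA was found in 1 window, that of Col6a1 (6.75% of all windows hold it), and the STAT element TTCNNNGAA in 2, those of Col28a1 and Col6a5 (7.02%). The CRE TGACGTCA (1.55%) and the composite TGATGNAAT (0.816%) were found in 0 of 38, and ATGCAAT in 1, that of Col10a1. TATAAA was found in 5 windows.

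Col15a1 was the second collagen to rise with both mRNAs. It stood at 8.05, 8.79, 7.61 and 5.87 CPM with GFP, at 8.05, 7.42, 8.29 and 9.71 CPM with Atf4, and at 12.7, 11.6, 15.2 and 10.6 CPM with both. The libraries with both mRNAs were above all others, and Col15a1 rose against GFP (log2 0.74 ± 0.18, adjusted p = 0.00840) in every leave-out. Against Atf4 alone (log2 0.66 ± 0.18, adjusted p = 0.0450) the call was lost in 8 of 8 leave-outs (0.0517 to 0.120), with DESeq2 (0.0887), with no filter (0.0875), without rounding (0.0503) and with only those groups in the fit (0.0507).

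Col5a3 was the collagen that fell. It stood at 67.7, 64.2, 80.4 and 51.9 CPM with GFP and at 47.5, 40.1, 57.1 and 41.9 CPM with both mRNAs, with 1 library overlapping (log2 -0.49 ± 0.15, adjusted p = 0.0259). The call was lost without GFP replicate 1 (0.0533), 2 (0.0583) or 3 (0.0769) and without replicate 2 (0.0837) or 4 (0.0785) of the group with both. With Atf4 alone Col5a3 stood at 68.1, 53.3, 75.3 and 63.0 CPM, within the GFP range. Col5a3 was lower than its control both with siAtf4 and with Atf4 and Cebpg mRNA.

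Col9a2, lower with siAtf4, lay higher with Atf4 mRNA. It stood at 2.29, 2.90, 1.91 and 3.02 CPM with GFP and at 4.37, 4.96, 5.73 and 5.06 CPM with Atf4, without overlap, but did not pass (log2 0.99 ± 0.30, adjusted p = 0.0733). With both mRNAs the Col9a2 libraries spread from 2.33 to 5.62 CPM (5.62, 2.74, 2.33 and 4.29).

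**Figure D5:**
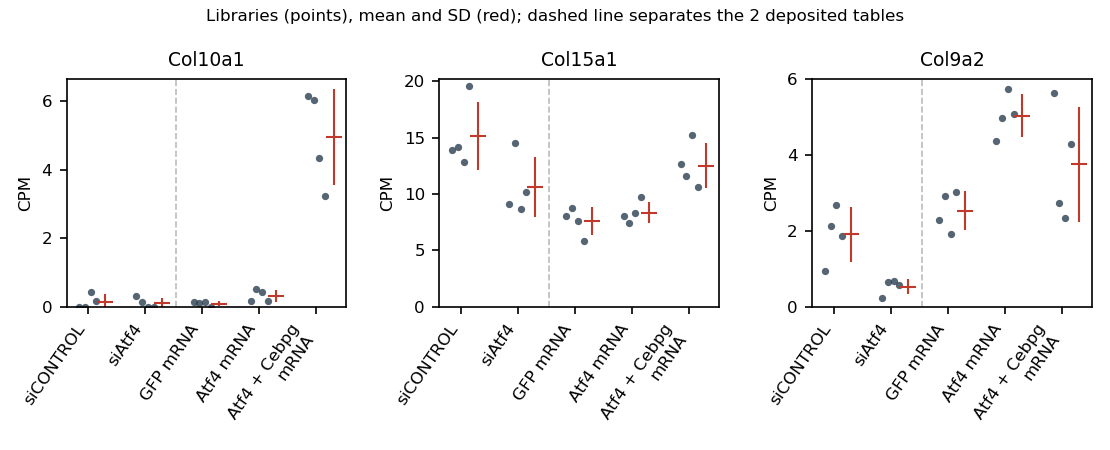
CPM of Col10a1, Col15a1 and Col9a2 in each library (points) of siCONTROL, siAtf4 and the 3 mRNA groups, with the mean and SD in red, y axes from 0, and a dashed line between the 2 deposited tables. Col10a1 lies between 3.24 and 6.15 CPM with Atf4 and Cebpg mRNA and at 0.513 CPM or less with GFP or Atf4 mRNA.

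Other genes of collagen metabolism were measured with the added mRNAs. With both, 24.6% of all genes were called, and the 5 of 22 ER genes and 2 of 8 processing genes called are near that background. P4ha2, a prolyl hydroxylase subunit, rose from 26.0 CPM with GFP to 89.2 CPM with both mRNAs (log2 1.79, adjusted p = 7.36e-07), and it rose with Atf4 alone (log2 0.75, adjusted p = 0.00527). Of 22 ER genes of collagen synthesis, 2 rose and 3 fell with both mRNAs. The other that rose was Mia2 (log2 0.23), and Plod3 (log2 -0.57), P4hb (log2 -0.40) and Ppib (log2 -0.22) fell. Pcolce2 (log2 -0.96) and Bmp1 (log2 -0.68) fell among 8 processing genes. The receptor subunit Itga1 rose (log2 1.26), and Itga2 (log2 -1.07), Ddr1 (log2 -0.36) and Itgb1 (log2 -0.32) fell. Among 10 fibril-binding genes, the small leucine-rich proteoglycans Lum (0.643 to 8.79 CPM, log2 3.81, adjusted p = 0.000134) and Ogn (1.14 to 6.91 CPM, log2 2.63, adjusted p = 0.00254) rose. P4ha2, Lum and Ogn kept their calls against GFP in every leave-out. The GFP means of Lum and Ogn lay under the filter's minimum of 2.25 CPM, so their entry to the test depended on higher groups. For Lum and Ogn the levels are a description, and neither the p-values nor the leave-outs are independent support. The call of Itga2 was lost in 7 of 8 (0.0530 to 0.107) and kept without replicate 1 of both mRNAs. That of Ddr1 was lost without GFP replicate 2 (0.0653) or 3 (0.05004) or replicate 2 (0.0577) or 4 (0.0755) of both mRNAs, that of Mia2 without GFP replicate 3 (0.0619) or 4 (0.0820) or replicate 2 (0.0704) or 4 (0.0598) of both, and that of Plod3 without replicate 3 of both (0.0525).

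Cell type markers moved in the same comparison. Of 5 fibroblast markers 2 rose, Lum and Mfap5 (3.27 to 34.1 CPM, log2 3.36), and the marker sum was 73.6 CPM with GFP, 82.0 with Atf4 and 116 with both. Most of the rise in that sum was Mfap5, and Lum is also in the fibril-binding list. The median log2 fold change of the 5 markers was 0.19 (-0.15 to 3.81), so the sum does not describe fibroblast markers in general. Of 8 endothelial markers 3 rose, Cdh5 (log2 0.61), Pecam1 (log2 0.59) and Kdr (log2 0.50, lost without GFP replicate 4, 0.0647, or replicate 3 of both mRNAs, 0.0596), and their sum was 299.8, 334 and 348 CPM. Of 11 Schwann cell markers 2 rose (Ngfr, Ncmap) and 1 fell (Pmp22), of 7 satellite glia markers 2 rose (Apoe, Aldoc) and 1 fell (Glul, log2 -1.22), and of 5 mural cell markers 1 rose (Tagln, log2 1.23). Of 10 pan-neuronal markers 1 rose (Rbfox3) and 1 fell (Tubb3, log2 -0.68), and their sum was 12940 CPM with GFP, 11860 with Atf4 and 11040 with both. The call of Aldoc was lost in 5 of 8 leave-outs (up to 0.150) and that of Rbfox3 in 4 of 8 (up to 0.0868). Col1a1 and Col3a1 did not pass, which with 4 libraries per group does not tell whether they changed. The part of these cell types in the higher Col10a1 and Col15a1 was not tested.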

How the data were processed

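The authors deposited expected counts, which are estimates and can be fractional, in 2 tables: the first holds the siRNA groups and time 0, the second the mRNA groups. The submitters' processing notes name kallisto and GRCm39. The version of kallisto, the annotation, scaling and whether strand was used are not given in these sources, and libraries were made with a stranded mRNA kit per the labels. Small deposited values multiplied by transcript length clustered near 1 constant in each library, as counts derived from TPM do, so the counting error in the model is off by a factor that depends on gene length. Symbols came from GENCODE M21 (GRCm38) for 32470 of 34183 identifiers (95%). All 48 columns were matched by name.

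Counts were rounded, filtered with filterByExpr, scaled by TMM and tested with edgeR 4.0.16 (glmQLFit, glmQLFTest, R 4.3.3) with Benjamini-Hochberg adjustment over all genes tested and a threshold of 0.05. Every adjusted p is from that test unless DESeq2 (1.42.0) is named. Time 0 and siCONTROL (13448 genes), siCONTROL with 7 knockdowns (14876) and the 3 mRNA groups (13857) were fitted separately, and the 2 tables were not tested against each other. SE is the log2 fold change over the square root of F. On simulated counts, 74.5% (culture), 69% (siAtf3) and 71% (Atf4 mRNA) of 200 genes changed 2-fold were recovered, with 5, 7 and 11 false calls. These counts were drawn from the fitted model, with no effect of replicate number or transcript length. Far fewer genes were changed in them than were called in culture, so the shares recovered need not hold for the data. Alternatives were no filter, no rounding, another scaling, only the groups compared, a replicate block, DESeq2 and leaving out each library.

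The members, the lists and the rule for named genes were chosen with earlier results of these data known. Collagen genes were named where they passed a test or were among the most abundant or, without overlap, near the threshold, and up to 4 of each other list with the largest change. Promoters were matched by symbol to the RefSeq table for GRCm38.p6, and no coordinates were converted.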

Additional observations from a re-analysis of the deposited data

Results flagged for a closer look

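A library that stood apart from the other 3 of its group (Dixon's test at the 95% level) was found in 13 of 191 group tests over 16 abundant or named collagen genes, where chance gives about 1 in 20. Of genes described above, Col5a3 in siAtf4 replicate 2 was at 61.5 CPM beside 53.5 to 54.5. Col25a1 was at 0.930 CPM in siCONTROL replicate 3 beside 0.176 to 0.287, and at 1.22 CPM in siAlyref replicate 1 beside 0.179 to 0.251. Col3a1 was at 22.6 CPM in replicate 1 with Atf4 and Cebpg mRNA beside 8.68 to 10.9, and in the same library Col8a1 was at 7.76 CPM beside 6.11 to 6.29. Col8a1 was low in Atf4 mRNA replicate 2, at 5.57 CPM beside 8.10 to 8.37.

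Col5a2 was at 6.44 CPM in time 0 replicate 4 beside 4.22 to 4.50, and at 42.2 CPM in siAlyref replicate 3 beside 29.4 to 31.3. Col1a2 was at 16.7 CPM in time 0 replicate 1 beside 13.4 to 13.6. Col16a1 was at 9.17 CPM in siKlf6 replicate 1, the shallowest library, beside 20.4 to 21.8. Col9a2 was at 2.90 CPM in siStat3 replicate 2 beside 0.746 to 0.975. Col10a1 was at 0.531 CPM in siAtf3 replicate 3 beside 0 in the others, and at 0.503 CPM in siStat3 replicate 1 beside 0.151 to 0.173.

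Effects also differed between the 7 knockdowns by edgeR's test of that difference for Col5a3 (adjusted p = 2.25e-05), Col3a1 (0.00239), Col18a1 (0.0172), Col6a5 (0.0232), Col28a1 (0.0309), Col26a1 (0.0439) and Col9a2 (0.0496). For Col18a1, siAlyref held 61.5, 66.2, 77.5 and 71.7 CPM and siKlf6 65.2, 67.0, 83.7 and 80.7 CPM, beside 89.8, 88.5, 112 and 115 CPM with siJun.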

How the results depend on the processing

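The count of collagen genes called depended on the setting mostly in the knockdowns, where it was 1 or 2. With no filter on low counts it went from 2 to 1 with siAtf4, from 1 to 0 with siJun and from 2 to 1 for both mRNAs against Atf4 alone, and without rounding (chosen after seeing the data) it also went to 1, 0 and 1. With only the 2 groups compared in the fit it was 1 with siAtf4, 0 with siJun, 0 with siKlf6 and 1 for both mRNAs against Atf4 alone. With DESeq2 it was 2 with siAtf3, 2 with siJun and 1 for both mRNAs against Atf4 alone. With the replicate number as a block it was 4 with siAtf3, 4 with siAtf4, 3 with siJun and 3 with siAlyref. The share of all genes called was computed in the main setting only. These counts, and those of the leave-outs below, therefore have no background beside them and are no result about collagen genes. Same-numbered libraries correlated at 0.0308 to 0.179 in their deviations from the group means, not over 0.1 in every pair, so the number was not taken to pair the libraries, although the summed collagen and Schwann cell marker levels split by it as described above. Pairs of unlike number had mean correlations of -0.0405 to -0.0178. Each group was centred on its own mean, which by itself makes these means negative where same-numbered pairs correlate positively. They are therefore no separate evidence on pairing. The main p-values take no account of the number. Each library correlated best with its own number in all 4 pairs with siRest and in the mRNA groups and in all 3 with siKlf6, and in 2 or 3 of 4 elsewhere.

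Leaving out 1 library gave 16 to 19 calls in culture, 1 to 2 with siAtf3, 1 to 2 with siAtf4, 0 to 2 with siJun, 0 to 1 with siKlf6, 0 to 1 with siAlyref, 3 to 7 among the knockdowns, 0 to 1 for Atf4 mRNA (1 without its replicate 1), 2 to 4 for both mRNAs against GFP and 1 for both against Atf4 alone. The cause of these differences was not tested. Of values not past the test, those that changed sign on leaving out 1 library were Col11a1 in culture (log2 -0.62 to 0.18), Col27a1 in culture (-0.0283 to 0.41) and Col5a3 with siStat3 (-0.14 to 0.0460). DESeq2's size factors in place of TMM left every count within 1.5 times. Leaving out the counts of Atf4 and Cebpg (chosen after seeing the data) left the counts in the mRNA groups at 0, 3 and 2. Col10a1 rests on 3 to 78 counts per group in the mRNA groups. The filter's minimum lay between 1.98 and 2.25 CPM, and genes that reached it in too few libraries of a fit were not tested. Some untested genes lay over it in single libraries, as Col24a1 did with 5.31 CPM in its highest library.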
